A study of Mus musculus with 3 samples.

Results

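Classical Ccr2 monocytes were 167 of the 5650 cells that the authors kept from 3 mouse neuroblastomas, and 167 of the 1450 kept myeloid cells. They were chosen from the counts of unique molecular identifiers (UMIs, tags that count each captured RNA molecule once) of every kept cell. A cell was a member if it held at least 2 of the myeloid genes Csf1r, Tyrobp, Fcer1g, Ctss and Cd68, at least 3 of the 6 classical genes Ccr2, F13a1, Vcan, Ly6c2, Chil3 and Fn1, and more of these than of the 6 nonclassical genes Cd300e, Fcgr4, Ace, Ear2, Treml4 and Pecam1. It also had to hold fewer than 3 of the neutrophil genes Csf3r, Cxcr2, Il1r2, Retnlg and G0s2, with C1qa, C1qb and C1qc together under 0.3% of its UMIs. Counts of these 25 genes made the class, so their levels are given as a description without a test.

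The tumors came from TH-MYCN mice that were heterozygous for the transgene, in which the tyrosine hydroxylase promoter drives human MYCN in cells of the sympathetic lineage. Tumors 1, 2 and 3 were taken at 62, 79 and 63 days of age, 1 per mouse, with no treatment, and all belonged to a single group. Whole tumors were dissociated and single-cell RNA was captured in droplets (10x Genomics), without a sort for immune cells. The tumor was the replicate, and cell classes were compared inside the same tumors.

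Classical monocytes leave the bone marrow through the chemokine receptor CCR2, carry Ly6C at their surface, and enter inflamed or growing tissue, where they can become macrophages or antigen-presenting cells. Nonclassical monocytes lose CCR2 and Ly6C, gain CX3CR1 and patrol the vessel wall, and in mice many of them derive from classical monocytes. Macrophages that make the complement protein C1q are a more settled tissue population, and neutrophils are short-lived granulocytes that share several granule genes with young monocytes.

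The 3 libraries held 3257 to 6038 barcodes and 17319241 to 21829496 UMIs, and the authors kept 1914, 1221 and 2515 cells of tumors 1, 2 and 3. Barcodes shared between libraries numbered 8, 1 and 8, and 0 of them were classical monocytes. Tumor 1 gave 155 of the members, tumor 2 gave 9 and tumor 3 gave 3, so the class is described in depth only for tumor 1. Members had a median of 11369 UMIs in tumor 1 (602 to 44541), 2649 in tumor 2 and 4892 in tumor 3. Nonclassical monocytes of tumor 1 had a median of 7005 UMIs, C1q macrophages 11118 and neutrophils 2714.5. After every cell was thinned to 1000 UMIs, 71, 4 and 2 cells still met it.

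Classical monocytes were 8.10% of the kept cells of tumor 1 (95% exact binomial interval 6.91 to 9.41), 0.737% of tumor 2 (0.338 to 1.39) and 0.119% of tumor 3 (0.0246 to 0.348). Among kept myeloid cells they were 14.1% (12.1 to 16.2), 6.08% (2.82 to 11.2) and 1.51% (0.312 to 4.34), a mean of 7.21% ± 6.35 (SD, n = 3). At full depth, the interval of tumor 1 lay above that of tumor 2, which in turn overlapped that of tumor 3. These intervals cover counting error only, and with 1 tumor per age no comparison between ages was made. At 1000 UMIs per cell, members were 8.10%, 3.45% and 1.28% of the 877, 116 and 156 myeloid cells of the 3 tumors. No intervals were computed at that depth, so the separation of tumor 1 is stated for full depth only. By the same kind of rule, nonclassical monocytes numbered 318, 25 and 43 cells, C1q macrophages 102, 41 and 58, and neutrophils 226, 43 and 15. The other 412 myeloid cells fell in no class.

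**Figure D1:**
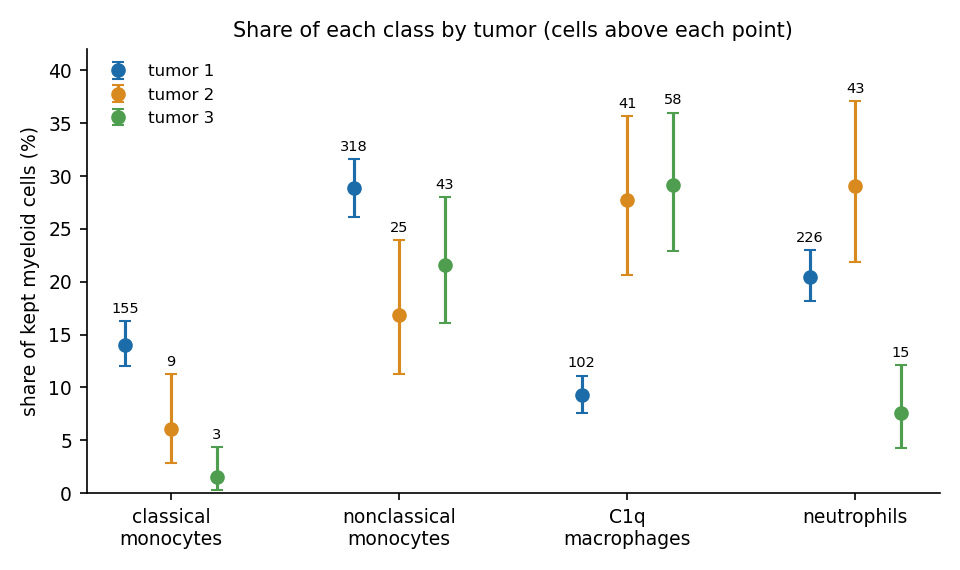
Share of kept myeloid cells (%) for the 4 cell classes, with 1 point per tumor, the number of cells above it and the exact binomial 95% interval as the bar. Classical monocytes are at 14.1% in tumor 1 and at 6.08% and 1.51% in tumors 2 and 3, and their intervals in tumors 2 and 3 overlap.

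The genes of the rule cannot check the label, since they chose the cells, and are given to show where the members lie in it. Of the 6 classical genes, 3 were detected in 23 members, 4 in 39, 5 in 62 and all 6 in 43. Just outside stood 93 myeloid cells with 2 of the 6 genes and 22 cells with as many nonclassical as classical genes. C1q was far from its limit, since 134 members had no C1q UMI and none lay between 0.2% and 0.3%. A C1q share at or over 0.3% kept out 10 cells that otherwise met the rule, and 3 neutrophil genes kept out 3. Most members, 136 of 167, held all 5 myeloid genes.

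Levels are given as CPM, the UMIs of a gene for every 1000000 UMIs of the summed cells of a class in 1 tumor. A single UMI stood for 0.557 CPM in the classical monocytes of tumor 1, 29.5 CPM in tumor 2 and 83.1 CPM in tumor 3. Values of tumor 3 therefore rest on a handful of molecules in 3 cells and were left out of the main fit. Ccr2, the receptor for the monocyte attractant CCL2, stood at 766, 944 and 333 CPM in tumors 1, 2 and 3 (chr9:124101950-124113557, GRCm38, plus strand). In tumor 1 it was found in 146 of 155 members, with a median of 7 and at most 39 UMIs per cell. Nonclassical monocytes had 79.6, 9.52 and 51.3 CPM of it, below the classical level in every tumor. F13a1, the A chain of coagulation factor XIII, was at 648, 472 and 416 CPM in classical and at 14.9, 0 and 0 CPM in nonclassical monocytes.

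Fn1, which encodes fibronectin, was, of the 6 classical genes, the one found in most members of tumor 1, 151 of 155, at 1125, 1151 and 665 CPM. Vcan, the proteoglycan versican, was found in 80 of them, at 227, 177 and 416 CPM. Chil3 encodes the secreted chitinase-like protein Ym1 and varied most between tumors, at 1427, 9974 and 416 CPM. The 9 cells of tumor 2 thus held 338 Chil3 UMIs, more than those of the 5 other classical genes together. Of the nonclassical genes, Cd300e was at 6.68, 0 and 0 CPM and Pecam1 at 11.7, 0 and 0 CPM, whereas Ear2 kept 82.9, 266 and 249 CPM.

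Ly6c2 encodes the Ly6C antigen by which classical monocytes are sorted. It was at 370, 266 and 416 CPM, against 48.7, 0 and 0 CPM in nonclassical monocytes, 35.1, 0 and 10.0 CPM in C1q macrophages and 137, 127 and 0 CPM in neutrophils. In tumor 1 it was detected in 109 of 155 members, or 70.3%. At an equal depth of 1000 UMIs per cell this was 28.6% (21.6 to 36.4) of 154 members, against 2.88% (1.32 to 5.39) of 313 nonclassical monocytes and 5.5% (2.88 to 9.42) of 218 neutrophils. The 250 bases before its start, on chr15:75111972-75112221 of GRCm38 and read on the minus strand, are shown for the letters GAGGAAGT. These letters are bound by PU.1, the lineage factor of myeloid cells. Of the 5 classical genes with a promoter window in RefSeq, Ly6c2 and F13a1 held them. The shares were 5.03% of 4059 genes tested and 3.69% of all 27025 genes with a window. The capitals mark the match, 108 to 101 bases before the start. RefSeq lists 2 promoters for the gene, and the one shown was chosen because it had the most motif matches.
Ly6c2: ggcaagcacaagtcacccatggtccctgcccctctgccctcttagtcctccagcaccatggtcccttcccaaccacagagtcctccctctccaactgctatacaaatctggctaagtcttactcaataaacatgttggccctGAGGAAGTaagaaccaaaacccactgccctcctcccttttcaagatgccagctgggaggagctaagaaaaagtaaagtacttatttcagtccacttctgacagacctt

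Genes outside the rule were tested on summed counts of the 4 classes. Sums of at least 5 cells were compared in a single edgeR quasi-likelihood fit with the tumor as a block, over 5088 genes, and p values were adjusted by the Benjamini-Hochberg method with a threshold of 0.05. Only tumors 1 and 2 gave a classical sum, so each result is a comparison within 2 animals, with nonclassical monocytes, C1q macrophages and neutrophils of 3. The 3 comparisons share the classical sums. The genes tested were measured in the very cells that the rule chose. Results are followed through up to 14 alternatives, in 3 of which (tumor 1 left out, tumor 2 left out, sums of at least 10 cells) the classical class is a single sum that is assumed to vary like the other sums.

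Against nonclassical monocytes, edgeR called 40 genes higher and 60 lower in classical monocytes, 1.97% of all genes tested (0.786% higher and 1.18% lower). Ccr1, Cd14, Msr1, Mmp8, S100a10 and Thbs1 were among the higher genes, and Spn, Cd9, Pou2f2, Tcf7l2 and Bcl2 among the lower ones. The median log2 fold change of all genes was -0.14. Without the tumor as a block edgeR called 0 genes here (234 at an unadjusted p under 0.05, against 487 with it), while DESeq2 with the block called 68. Leaving out tumor 1 left 26 calls, of which 21 were higher and 5 lower, and leaving out tumor 2 left 262 (106 higher and 156 lower).

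Of 20 genes for migration and adhesion, 3 were higher and 4 lower than in nonclassical monocytes. Ccr1, a receptor for inflammatory CC chemokines, was at 171, 266 and 0 CPM in classical monocytes of tumors 1, 2 and 3. In nonclassical monocytes it was at 9.45, 9.52 and 0 CPM, below the classical sum in tumors 1 and 2. Its log2 fold change was 4.80 (standard error 0.85, edgeR adjusted p 0.0033), and without tumor 1 it was 6.18 but not called (adjusted p 0.45).

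The adhesion genes that were lower included Spn, the sialophorin CD43, at 40.6, 29.5 and 83.1 CPM against 366, 181 and 279 CPM in nonclassical monocytes. Its log2 fold change was -3.20 (0.57, edgeR adjusted p 0.0025), and the classical sum was the lower in every tumor, with a single UMI in tumor 3. Cd9, a tetraspanin, was at 40.1, 59.0 and 0 CPM against 536, 314 and 291 CPM, a log2 fold change of -3.83 (0.65, edgeR adjusted p 0.0021). Both calls were lost without tumor 1, at adjusted p values of 0.42 and 0.29. The formyl peptide receptor gene Fpr1 and the sphingosine receptor gene S1pr5 were the other lower members. Cx3cr1, the fractalkine receptor of patrolling monocytes, was at 158, 88.5 and 0 CPM against 447, 228 and 422 CPM, which did not pass the test (log2 fold change -1.66, edgeR adjusted p 0.14).

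Among 34 pattern recognition and Fc receptor genes, 3 were higher and 3 lower. Cd14, the coreceptor for bacterial lipopolysaccharide, stood at 1158, 1918 and 2078 CPM in classical and at 364, 209 and 199 CPM in nonclassical monocytes, higher in 3 of 3 tumors. The log2 fold change was 2.13 (0.42, edgeR adjusted p 0.0059), and the call was lost without tumor 2 (adjusted p 0.12). Msr1, a scavenger receptor for modified lipoproteins, was at 167, 118 and 83.1 CPM against 25.8, 9.52 and 17.1 CPM (log2 fold change 2.88, standard error 0.50, edgeR adjusted p 0.0024), and was not called without tumor 1 (adjusted p 0.23). Fcgr1, the high-affinity Fc receptor, was called at 2.95 (edgeR adjusted p 0.045) but was detected in classical monocytes of tumor 1 only, at 89.6 CPM, and its fold change was -3.47 without that tumor.

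Granule and antimicrobial genes gave 2 higher members and 1 lower of 26. Mmp8, a collagenase stored in granules (chr9:7558456-7568485, plus strand), was at 94.1, 236 and 333 CPM against 6.54, 0 and 0 CPM, and in tumor 1 it was found in 66 of 155 classical monocytes. Its log2 fold change was 4.36 (0.68, edgeR adjusted p 0.0014). Without tumor 1 it was still called (adjusted p 0.0020), there with 9 classical cells against 0 UMIs in nonclassical monocytes. S100a10, a partner of annexin A2 at the plasma membrane (chr3:93555080-93564643, plus strand), was at 985, 915 and 499 CPM against 212, 57.1 and 79.7 CPM, a log2 fold change of 2.98 (0.53, edgeR adjusted p 0.0025). It passed the threshold in 13 of 14 alternatives, the exception being the fit without the block.

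Of 13 interferon-stimulated genes, Slfn5 and Ifi204 were higher and none was lower. Slfn5 was at 190, 59.0 and 0 CPM against 27.3, 19.0 and 11.4 CPM, a log2 fold change of 2.77 (0.56, edgeR adjusted p 0.0067). Among 17 matrix, coagulation and wound genes 3 were higher. Thbs1, which encodes thrombospondin, was at 519, 620 and 83.1 CPM against 29.1, 47.6 and 68.4 CPM (log2 fold change 3.64, standard error 0.87, edgeR adjusted p 0.049). In tumor 1 it came from 56 of 155 cells, and 10 cells held 56.2% of its UMIs. The other 2, Spp1 and Mmp12, rested on few cells, as described below.

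Transcription factor genes gave no higher and 3 lower members of 26. Pou2f2, which encodes OCT2, was at 277, 354 and 831 CPM against 1102, 1028 and 1487 CPM (log2 fold change -1.88, standard error 0.45, edgeR adjusted p 0.024). Tcf7l2, a factor of the Wnt pathway, was at 40.1, 0 and 0 CPM against 211, 162 and 182 CPM (-2.44, 0.53, edgeR adjusted p 0.013). Without tumor 1 their adjusted p values were 0.059 and 0.084, and without tumor 2 that of Pou2f2 was 0.10. Nr4a1, on which nonclassical monocytes depend, was at 465, 118 and 1247 CPM against 723, 476 and 723 CPM and did not pass the test (-1.42, 0.53, edgeR adjusted p 0.27).

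Survival genes gave 4 lower members of 12 and none higher. Bcl2, which blocks release of cytochrome c from mitochondria, was at 39.5, 0 and 166 CPM against 171, 190 and 96.8 CPM, a log2 fold change of -2.44 (0.57, edgeR adjusted p 0.020, and 0.27 without tumor 1). Its relatives Bcl2a1a, Bcl2a1b and Bcl2a1d were lower by -2.58, -2.81 and -2.48, and as near-identical copies they can share reads and do not count as separate evidence. Without tumor 1 the calls of Bcl2a1b (adjusted p 0.058) and Bcl2a1d (0.19) were lost. The 3 cells of tumor 3 went the other way, with 1413 CPM of Bcl2a1b against 427 CPM. None of the 21 inflammatory genes and none of the 25 proliferation genes was called by edgeR in this comparison, which has 487 genes at an unadjusted p under 0.05.

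A few of the largest fold changes came from single cells. Pf4, platelet factor 4, was at 181, 1180 and 0 CPM against 0, 0 and 5.70 CPM (log2 fold change 9.98, edgeR adjusted p 9.4e-07), but 299 of its 325 UMIs in tumor 1 lay in 1 cell. Pf4 was not called (edgeR adjusted p 0.97) with the top cell of each gene left out of sums of at least 20 cells. The classical sum of tumor 2, of 9 cells, kept its top cell. All 17 UMIs of Arg1, the arginase of suppressive macrophages, came from 1 cell of tumor 1, and Spp1 came from 4 cells of that tumor, with 60 of 67 UMIs in 1 of them. In all, 8 of the 40 higher genes had most of their UMIs of tumor 1 in a single cell, Apoc1, Col1a1, Col3a1, Mmp12 and Mrc1 being the others. By contrast, 30 of the 40 were detected in at least 31 of the 155 cells.

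Among the higher genes with the largest fold changes were also Ier3, an immediate early gene, at 259, 1092 and 83.1 CPM against 50.5, 47.6 and 5.70 CPM (log2 fold change 3.76, edgeR adjusted p 0.014), and Cd177, a surface protein best known from neutrophils, at 27.8, 88.5 and 83.1 CPM against 2.54, 0 and 0 CPM (3.73, edgeR adjusted p 0.010). Without tumor 1, Cd177 was not called (adjusted p 0.36). Gas7 and the interferon-inducible Ifi44l followed at 3.65 and 3.58. On the lower side, Eno3, the muscle form of enolase, was at 11.1, 0 and 83.1 CPM against 283, 219 and 296 CPM (-5.19, edgeR adjusted p 6.6e-04, and 0.12 without tumor 1). Cd72, an inhibitory lectin of B cells, was at 8.91, 0 and 0 CPM against 149, 305 and 285 CPM (-4.28, edgeR adjusted p 0.0024). Adrb1, the beta-1 adrenergic receptor, had no UMI in the classical monocytes of tumors 1 and 2, which makes it at least 26.4-fold lower against a floor of 3 UMIs over both tumors, while 3 UMIs (249 CPM) were counted in tumor 3. Dusp16, Sh2d1b1, Fcrl5, Slc12a2, Cxcl14 and Pdgfb were also lower.

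**Figure D2:**
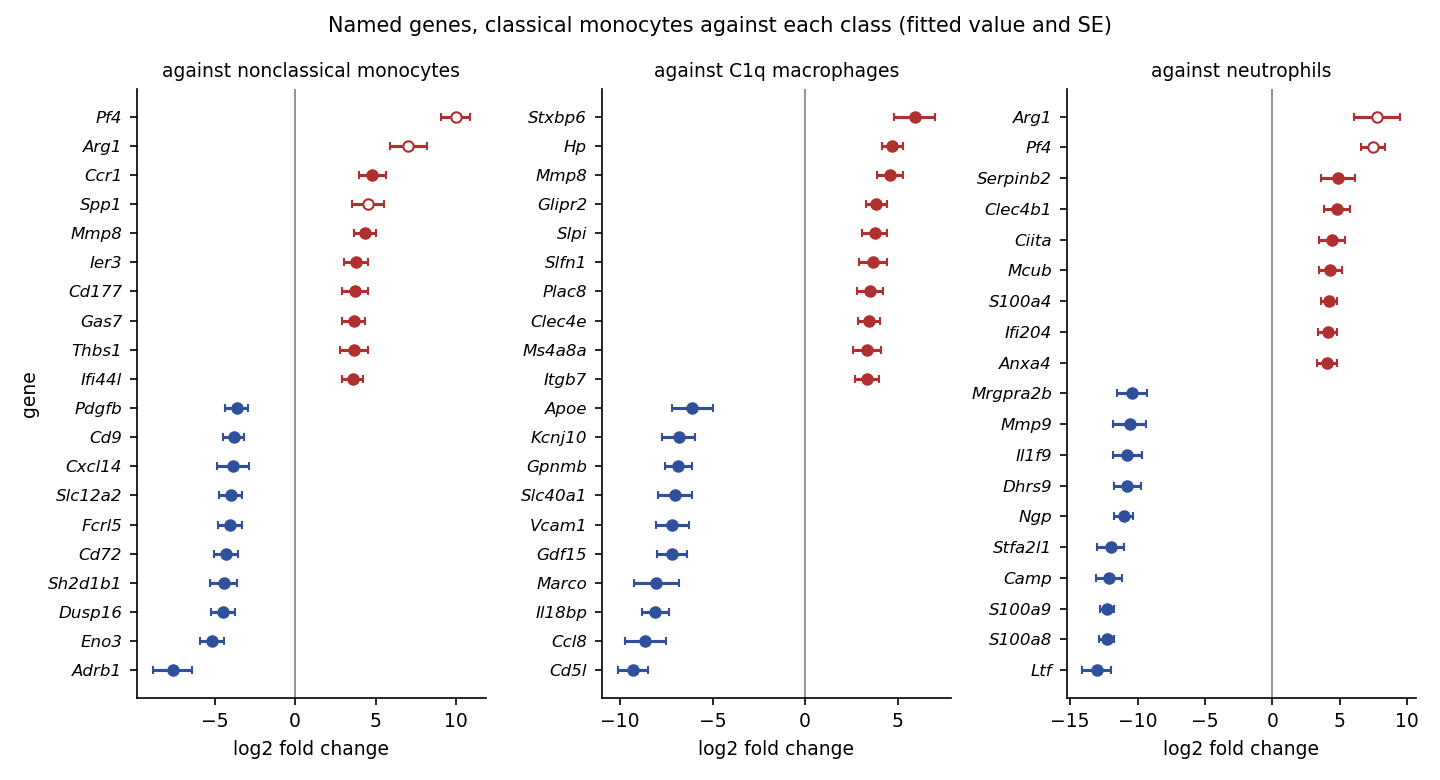
Fitted log2 fold change of classical monocytes against each of the 3 other classes, with the standard error as the bar, for up to 10 genes in each direction (red higher, blue lower). Open circles mark higher genes with most of their tumor 1 UMIs in a single cell, among them Pf4 at 9.98 against nonclassical monocytes.

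Against C1q macrophages, edgeR called 83 genes higher and 166 lower in classical monocytes, 4.89% of all genes tested (1.63% higher and 3.26% lower). S100, granule and antimicrobial genes gave 12 of the higher genes, and tissue macrophage and lipid genes gave 23 of the lower ones. The median log2 fold change of all genes was -0.10. Without the block 43 genes were called, without tumor 1 there were 67 (30 higher and 37 lower) and without tumor 2 there were 479 (179 and 300).

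Of 26 S100, granule and antimicrobial genes, 12 were higher and 1 lower, with a median log2 fold change of 2.24. Hp, haptoglobin, which binds free hemoglobin (chr8:109575128-109579172, minus strand), was at 868, 1092 and 831 CPM in classical monocytes and at 54.0, 0 and 13.4 CPM in C1q macrophages. It was found in 138 of 155 classical monocytes of tumor 1, had a log2 fold change of 4.73 (0.57, edgeR adjusted p 1.3e-05) and was called in 14 of 14 alternatives. At 1000 UMIs per cell, 44.8% of 154 classical monocytes of tumor 1 (36.8 to 53.0) held an Hp UMI. Of 74 C1q macrophages of tumor 1, 1.35% (0.0342 to 7.30) did. Cells with fewer UMIs were left out, 28 of 102 macrophages and 1 of 155 classical monocytes. Hemoglobin and other erythroid transcripts were also present in that tumor, at 883 CPM in classical monocytes and 4337 CPM in C1q macrophages, where 3959 of 5060 such UMIs lay in 1 cell. Their part in the result was not tested.

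Plac8, a small cysteine-rich protein gene of myeloid progenitors (chr5:100553725-100572245, minus strand), was at 2832, 620 and 1912 CPM against 314, 0 and 100 CPM, a log2 fold change of 3.51 (0.69, edgeR adjusted p 0.0057). Slpi, an inhibitor of neutrophil elastase, was at 151, 295 and 249 CPM against 13.7, 0 and 20.1 CPM (3.77, 0.68, edgeR adjusted p 0.0011). Mmp8 reached 4.59 (0.70, edgeR adjusted p 1.4e-04), with 6.0, 0 and 0 CPM in C1q macrophages. The S100 genes S100a4, S100a6, S100a10 and S100a11 were all higher, the first 2 by 2.79 and 2.56 and the last by 3.20. Without tumor 1, S100a6 and Plac8 were not called (adjusted p 0.43 and 0.51), and Anxa1 and Ifitm1, called in the full fit, had fold changes of -0.19 and -3.03.

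The migration and adhesion list, in which the pattern recognition gene Clec4e was placed, gave 4 higher members and 1 lower of 20. Clec4e, the lectin Mincle that senses mycobacterial glycolipid and dead cells (chr6:123281789-123289870, minus strand), was at 313, 236 and 416 CPM against 30.9, 13.2 and 16.7 CPM. Its log2 fold change was 3.46 (0.58, edgeR adjusted p 3.8e-04), it was found in 109 of 155 members and it was called in 14 of 14 alternatives. Itgb7, an integrin chain that pairs with the alpha 4 chain, was at 112, 118 and 249 CPM against 13.7, 0 and 3.35 CPM (3.33, 0.65, edgeR adjusted p 0.0019). Stxbp6, Glipr2, Slfn1 and Ms4a8a completed the 10 higher genes with the largest fold changes.

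Chemokine and cytokine genes gave 3 higher and 3 lower members of 21. Ccl9, a chemokine of monocytes, was at 683, 472 and 83.1 CPM against 88.3, 4.40 and 66.9 CPM (3.15, 0.61, edgeR adjusted p 0.0019, and 0.27 without tumor 1). Cxcl2, which attracts neutrophils, was at 873, 738 and 11389 CPM against 104, 216 and 120 CPM (2.37, 0.59, edgeR adjusted p 0.032), and Il1b was at 1217, 708 and 7565 CPM against 401, 299 and 274 CPM (1.33, 0.39, edgeR adjusted p 0.044). The 3 cells of tumor 3 stood far above the others for both genes and for Tnf, at 1995 CPM against 42.9 and 59.0 CPM in tumors 1 and 2. Il1b passed the threshold in 5 of 14 alternatives and was not called without tumor 1 (adjusted p 0.14). Ccl8 had no UMI in any classical monocyte and was at least 56.2-fold lower, but DESeq2 did not call it (adjusted p 0.80), nor did the fit without tumor 1 (0.40).

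The tissue macrophage and lipid list was the most one-sided of the 13, with 23 of 29 members lower, 1 higher (Pf4, mostly from 1 cell) and a median of -3.72, where lower genes made up 3.26% of all genes tested. Vcam1, an adhesion ligand of resident macrophages, was at 13.9, 0 and 0 CPM against 865, 1594 and 529 CPM, a log2 fold change of -7.18 (0.90, edgeR adjusted p 3.2e-05). Cd5l, a secreted protein of resident macrophages, was counted once in 155 cells of tumor 1 and stood at 421, 1514 and 231 CPM in C1q macrophages. Its log2 fold change was -9.33 (0.82, edgeR adjusted p 2.1e-07). The ratio of levels pooled over tumors 1 and 2 (classical) and 1 to 3 (macrophages) was 978 (counting interval 175 to 38618). Trem2, a lipid receptor, was at 13.9, 59.0 and 0 CPM against 304, 269 and 254 CPM (-4.24, edgeR adjusted p 3.2e-05). Apoe, the main apolipoprotein of macrophages, was at 173, 738 and 0 CPM against 11233, 29189 and 14253 CPM (-6.10, 1.11, edgeR adjusted p 0.030), and 60.5% of its tumor 1 UMIs lay in 1 classical monocyte. Slc40a1, which exports iron, and Hmox1, which degrades heme, were lower by -7.04 and -3.03. Without tumor 1, Apoe and Trem2 were not called (adjusted p 0.35 and 0.17). The macrophages were themselves chosen by their C1q level.

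Transcription factors gave 4 higher and 3 lower members of 26. Cebpb, a C/EBP factor of inflammatory myeloid cells, was at 2402, 148 and 2245 CPM against 516, 79.2 and 398 CPM, a log2 fold change of 1.49 (0.41, edgeR adjusted p 0.029), and Cebpd was higher by 2.01 (0.53, edgeR adjusted p 0.023). Neither was called without tumor 1 (adjusted p 0.83 and 0.88). Nfil3 and Id3 were also higher, at 2.21 and 2.18, and without tumor 1 their fold changes were -0.02 and -3.52. Of 25 proliferation genes 4 were lower, among them Mki67, at 12.8, 88.5 and 83.1 CPM against 61.7, 330.1 and 177 CPM (-2.01, edgeR adjusted p 0.020, and 0.34 without tumor 1).

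Promoter sequences of the genes that set classical monocytes apart from C1q macrophages are shown because several hold the letters TTGCNNAA, read on either strand, which C/EBP factors bind. In RefSeq promoters of GRCm38 (250 bases before to 50 after the start), 13 of the 63 higher genes with a listed promoter held this motif, or 20.6%, beside 10.5% of 4059 genes tested and 12.2% of all 27025 genes. Of the 136 lower genes with a promoter, 12.5% held it, as did 0 of the 5 classical genes of the rule with a promoter. For GAGGAAGT the shares were 11.1% of the higher genes, 8.09% of the lower genes and 5.03% of the genes tested. Another motif that was searched, that of the interferon response, was held by 11.1%, 5.88% and 4.31% of these genes. A larger share among the higher genes was therefore not particular to the C/EBP letters, and no share was tested. The letters are a description of these windows and not of binding. Of the 60 lower genes against nonclassical monocytes, 50 had a promoter and 10 of these held GAGGAAGT, among them the near-identical Bcl2a1a, Bcl2a1b and Bcl2a1d. The sequences come from the 10 higher genes with the largest fold changes against nonclassical monocytes and the 10 against C1q macrophages. Of these genes 6 held the C/EBP letters, and Pf4 and Spp1, which rest on few cells, are left out. The 250 bases before the start follow for the other 4, 5′ to 3′ on the gene's strand, with matches in capitals. They lie on chr9:7558179-7558428 (plus), chr6:123289872-123290121 (minus), chr2:164356508-164356757 (minus) and chr5:100563097-100563346 (minus).
Mmp8: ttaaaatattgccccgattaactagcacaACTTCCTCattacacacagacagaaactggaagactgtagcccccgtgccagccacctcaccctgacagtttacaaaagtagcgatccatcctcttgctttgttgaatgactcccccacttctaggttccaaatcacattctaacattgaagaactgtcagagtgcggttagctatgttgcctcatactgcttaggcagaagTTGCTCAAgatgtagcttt
Clec4e: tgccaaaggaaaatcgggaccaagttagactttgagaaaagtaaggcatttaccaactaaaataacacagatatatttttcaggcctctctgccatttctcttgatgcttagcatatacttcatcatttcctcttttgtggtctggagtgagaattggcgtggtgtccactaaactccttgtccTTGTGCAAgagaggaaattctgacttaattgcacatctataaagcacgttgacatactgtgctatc
Slpi: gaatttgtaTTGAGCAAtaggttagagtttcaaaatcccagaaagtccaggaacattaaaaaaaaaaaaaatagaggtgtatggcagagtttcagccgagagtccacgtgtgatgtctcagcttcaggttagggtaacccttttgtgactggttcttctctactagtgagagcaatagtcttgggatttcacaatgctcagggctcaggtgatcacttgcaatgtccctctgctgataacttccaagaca
Plac8: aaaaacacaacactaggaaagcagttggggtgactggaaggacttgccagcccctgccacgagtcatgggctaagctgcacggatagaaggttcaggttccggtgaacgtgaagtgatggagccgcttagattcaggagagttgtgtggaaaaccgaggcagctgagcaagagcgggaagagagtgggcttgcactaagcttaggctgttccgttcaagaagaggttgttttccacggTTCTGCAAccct

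The C/EBP letters stood 19 to 12 bases before the start of Mmp8, 66 to 59 before that of Clec4e, 241 to 234 before that of Slpi and 12 to 5 before that of Plac8. The first capitals in Mmp8, ACTTCCTC at 221 to 214, are the PU.1 letters on the opposite strand. RefSeq lists 2 promoters for Plac8 and 1 for each of the others. For Plac8 the one shown was chosen because it had the most motif matches.

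Against neutrophils, edgeR called 247 genes higher and 578 lower in classical monocytes, 16.2% of all genes tested (4.85% higher and 11.4% lower). Of the lists, transcription factors had 10 higher members and tissue macrophage genes 9, and granule genes had 14 lower members. The split depended on the counts used: with the authors' counts corrected for ambient RNA, 339 were higher and 261 lower, and the median log2 fold change of all 2499 genes tested moved from -0.10 to 0.26. Without the block 146 genes were called, without tumor 1 there were 203 (118 higher and 85 lower) and without tumor 2 there were 1305 (518 and 787).

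S100a8 and S100a9, the subunits of calprotectin, were at 15.0, 29.5 and 0 CPM and at 21.7, 29.5 and 83.1 CPM in classical monocytes, against 49712, 56352 and 16891 CPM and 69101, 75060 and 29912 CPM in neutrophils. Their log2 fold changes were -12.29 (0.54, edgeR adjusted p 1.6e-14) and -12.27 (0.49, edgeR adjusted p 2.7e-15). Of 155 classical monocytes of tumor 1, 24 and 35 held a UMI of them, and at most 2. Mmp9, a gelatinase, was counted once in classical monocytes, a ratio of 1685 on levels pooled over tumors, with a counting interval of 302 to 66570. Ltf, the lactoferrin of secondary granules, had no UMI and was at least 588-fold lower, and Camp, Ngp, Stfa2l1, Dhrs9, Il1f9 and Mrgpra2b followed. In total 14 of 26 granule genes were lower and 4 higher. Mmp8 was among the lower ones (-3.29, 0.56, edgeR adjusted p 1.9e-04), with 821, 1046 and 150 CPM in neutrophils.

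The higher granule genes were S100a4, S100a10, Plac8 and Lyz2, the macrophage lysozyme. S100a4, a calcium-binding protein gene of motile cells, was at 2378, 472 and 748 CPM against 118, 9.10 and 0 CPM in neutrophils (4.20, 0.58, edgeR adjusted p 1.7e-05). Lyz2 was at 21035, 21246 and 11389 CPM against 4393, 1547 and 780 CPM (2.90, 0.63, edgeR adjusted p 0.014), and without tumor 1 it was not called (adjusted p 0.11). Hp, a gene of both classes, was at 1690, 2075 and 900 CPM in neutrophils and did not pass the test (-1.41, edgeR adjusted p 0.060).

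Transcription factors gave 10 higher and 4 lower members of 26. Klf4, a factor of monocyte differentiation, was at 254, 413 and 665 CPM against 35.8, 9.10 and 0 CPM (2.98, 0.59, edgeR adjusted p 9.4e-04) and was called in 14 of 14 alternatives. Irf5, Zeb2, Cebpa, Maf, Runx3, Nr1h3, Spic and Pou2f2 were also higher, whereas Cebpb, Cebpd, Stat3 and Spi1 were lower. Irf8 did not pass the test (1.63, edgeR adjusted p 0.063).

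Of 21 inflammatory genes, 7 were lower than in neutrophils, 3 were higher and 11 did not pass the test. Cxcl2 was at 7334, 6097 and 6240 CPM in neutrophils and Il1b at 8975, 5996 and 6810 CPM, with log2 fold changes of -3.34 (edgeR adjusted p 0.0021) and -3.24 (edgeR adjusted p 7.6e-06), although the 3 classical monocytes of tumor 3 stood above the neutrophils of their tumor for both genes. Cd14 was lower too (-1.99, edgeR adjusted p 0.0019), at 5734, 3776 and 2250 CPM in neutrophils, and so was Ccr1 (-2.43, edgeR adjusted p 0.021, and 0.73 without tumor 1), at 1069, 601 and 630 CPM. The survival gene Mcl1 was at 870, 620 and 831 CPM against 3522, 1947 and 1620 CPM (-2.13, edgeR adjusted p 5.9e-04). Markers of neutrophils in classical monocytes summed to 132, 29.5 and 83.1 CPM over 8 genes, 5 of which the rule itself limits, with no Ly6g UMI in any tumor, against 18420, 17853 and 8881 CPM in neutrophils.

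**Figure D3:**
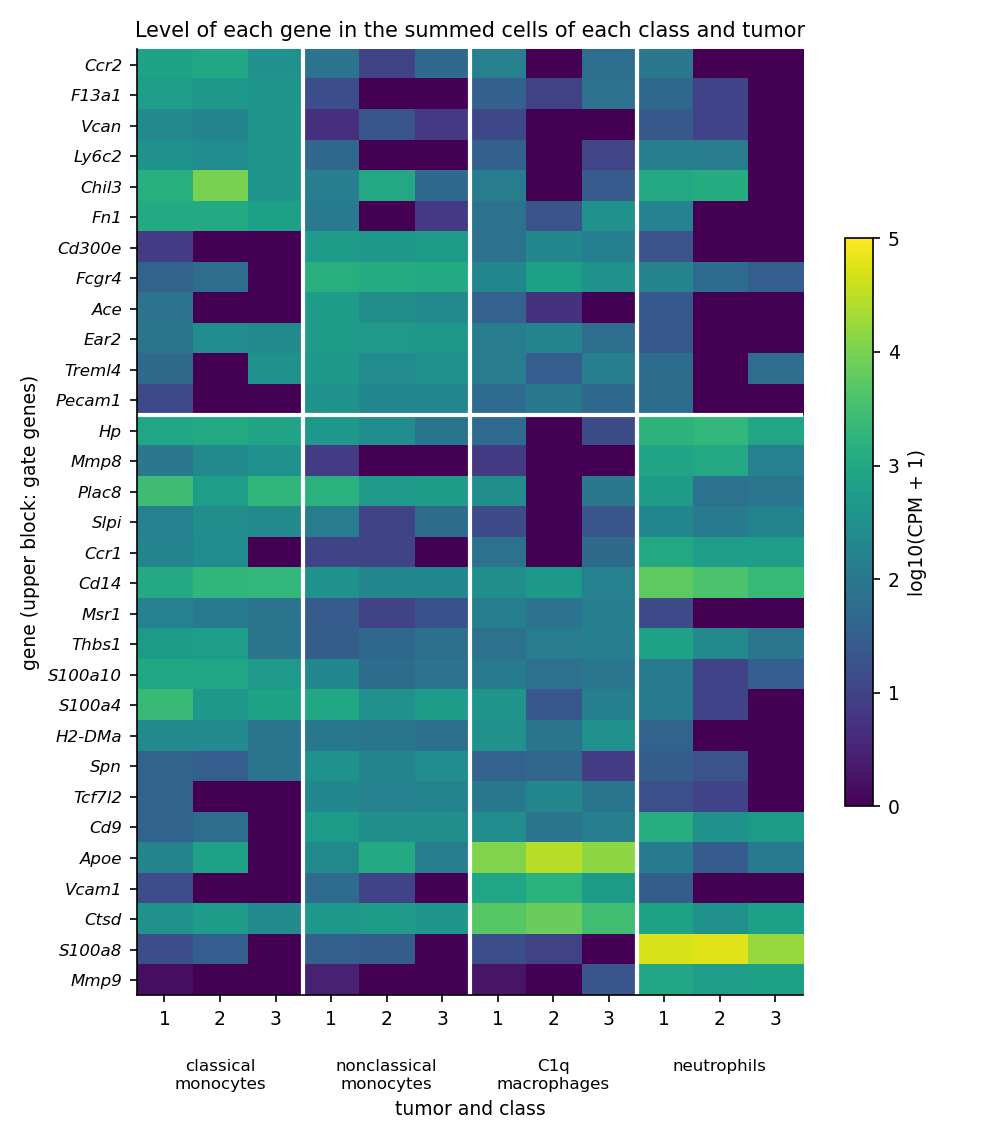
Level of each gene, as log10 of CPM plus 1, in the summed cells of the 4 classes and 3 tumors (columns), with the genes of the rule in the upper block and tested genes below, which were chosen after their values were seen. Mmp8 and Hp are present in classical monocytes and neutrophils and at 0 in C1q macrophages of tumor 2, and S100a8 is at 16891 CPM or more in neutrophils of every tumor and at 33.1 CPM or less in the other classes.

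**Figure D4:**
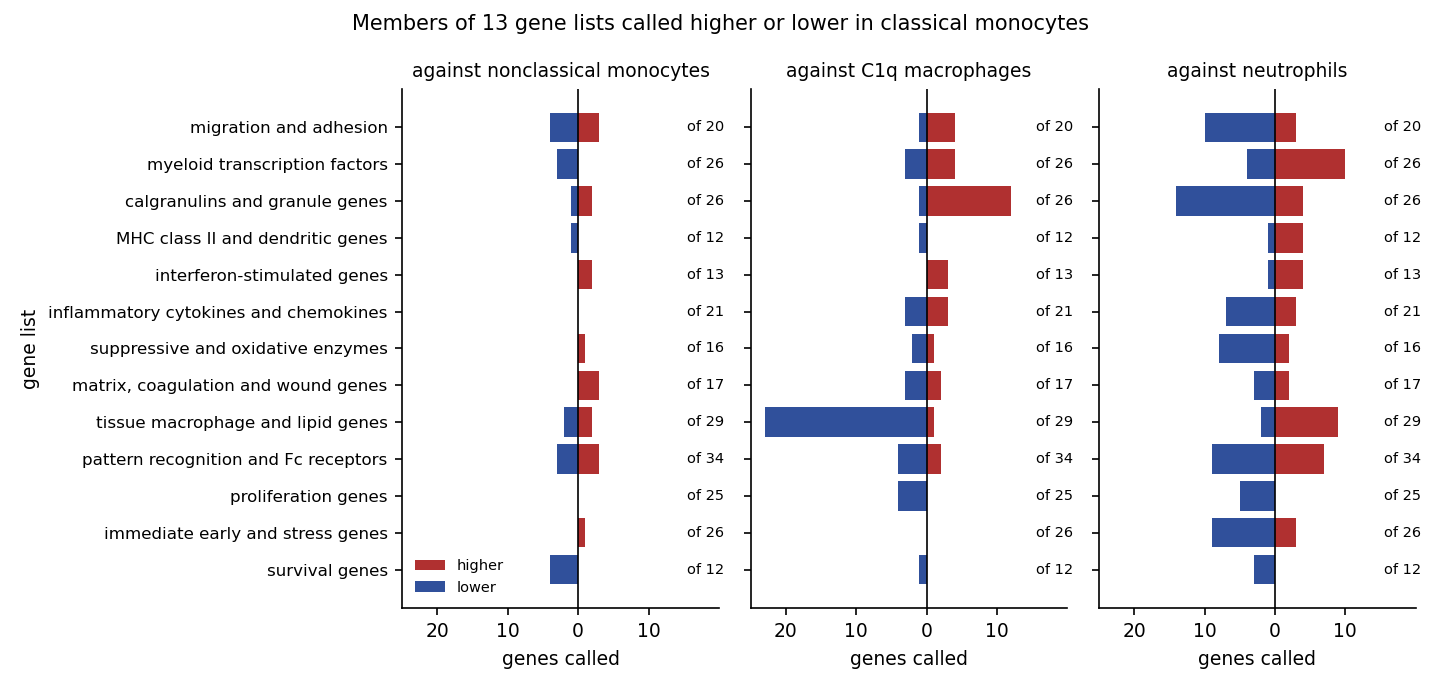
Number of genes of each of the 13 lists called higher (red, right) or lower (blue, left) in classical monocytes by edgeR, with the number tested at the right of each panel. The longest bar is that of the 23 lower tissue macrophage and lipid genes against C1q macrophages.

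Antigen presentation genes of MHC class II were variable. H2-Aa, the alpha chain of I-A, was at 1294, 2036 and 2743 CPM in classical monocytes, 1189, 800 and 786 CPM in nonclassical monocytes, 4804, 629 and 3132 CPM in C1q macrophages and 215, 0 and 0 CPM in neutrophils. Its log2 fold changes of 0.99 (standard error 1.19), -0.53 (1.30) and 4.02 (1.33) did not pass the test against any of them, the last at an edgeR adjusted p of 0.11. Ciita, the transactivator of these genes, H2-DMb1 and H2-DMa, which load the peptide, and the lectin gene Clec10a were higher than in neutrophils. Ciita was at 64.6, 118 and 0 CPM against 2.56, 0 and 0 CPM (4.43, edgeR adjusted p 0.0023). Itgax, the integrin CD11c of dendritic cells, was at 17.8, 0 and 83.1 CPM, with log2 fold changes of -3.23 (edgeR adjusted p 0.0051) against nonclassical monocytes, -2.82 (edgeR adjusted p 0.0050) against C1q macrophages and -3.16 (edgeR adjusted p 9.1e-04) against neutrophils. Without tumor 1 these were not called (adjusted p 0.40, 0.50 and 0.49), nor was Ciita (0.19). Cd209a, a lectin of monocyte-derived dendritic cells, had UMIs in 3 cells of tumor 1.

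Genes of suppressive and oxidative enzymes ranged widely. Nos2, the inducible nitric oxide synthase, had no UMI in 167 classical monocytes. Arg1 was confined to 1 cell in tumor 1, with 9.46, 148 and 0 CPM over the tumors. Cd274, which encodes PD-L1, was at 10.0, 59.0 and 83.1 CPM against 93.4, 114 and 148 CPM in nonclassical monocytes and did not pass the test (-3.48, 0.97, edgeR adjusted p 0.089). Cybb, the catalytic subunit of the phagocyte oxidase, was at 1061, 974 and 1164 CPM, and was higher than in neutrophils (1.97, 0.60, edgeR adjusted p 0.031, and 0.18 without tumor 1). Of the 16 genes tested in this list, 2 were higher and 8 lower than in neutrophils, 1 higher and 2 lower than in C1q macrophages, and 1 higher than in nonclassical monocytes. Of 26 immediate early and stress genes, edgeR called 0 against C1q macrophages (with 655 genes at an unadjusted p under 0.05 in that comparison), 1 against nonclassical monocytes, and 3 higher and 9 lower against neutrophils. Over all genes tested, 4.85% were higher and 11.4% lower against neutrophils. These shares were 1.63% and 3.26% against C1q macrophages, and 0.786% and 1.18% against nonclassical monocytes.

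Markers of other cells were counted in the members. In tumor 1, fibroblast markers gave 4380 UMIs, of which 3789 lay in 1 cell, plasmacytoid dendritic markers 415 UMIs with 5 cells at 10 or more, and T cell markers 94 UMIs with 2 such cells. In all 8 members held 10 or more UMIs of a fibroblast, plasmacytoid dendritic, T, B, natural killer, endothelial or plasma cell list. Without such cells of any class, edgeR called 125, 263 and 875 of 4761 genes tested against nonclassical monocytes, C1q macrophages and neutrophils. The nonclassical and C1q macrophage lists, not used for this, had 10 or more UMIs in 16 and 10 members. Of the 167 members, 153 held 2 or more genes of a tumor, T, B, endothelial, fibroblast or erythroid list, but 36 once the erythroid list was not used. Without such cells 30, 55 and 170 of 1205 genes tested were called, and 77, 154 and 577 of 2720 when the erythroid list was not used. The first of these alternatives left out 147 of the 155 members of tumor 1. Hemoglobin and other erythroid genes gave 10 or more UMIs in 86 of 155 members of tumor 1, while tumor cell markers stood at 13.4, 354 and 831 CPM over the 3 tumors. Basophil and mast cell markers were at 0 in every tumor.

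Members of tumor 1 were then divided by how many of the 6 nonclassical genes they held. With 0, 1, 2 and 3 or more detected there were 56, 42, 40 and 17 cells, whose median depths of 10886.5, 11791, 11625 and 10869 UMIs were close to each other. Ccr2 stood at 988, 769, 639 and 401 CPM in these groups, and Ly6c2 at 451, 448, 265 and 185 CPM. Fn1 had the same order, at 1389, 1081, 939 and 899.6 CPM. The other classical genes did not, since F13a1 stood at 1051, 547, 339.7 and 452 CPM, Chil3 at 1537, 1836, 1041 and 1008 CPM and Vcan at 235, 212, 159 and 416 CPM. The rule ties these genes to the groups. It asks for more classical than nonclassical genes, so cells of the last group had to hold more classical genes than the other groups required. Some genes outside the rule were ordered like Ccr2. S100a10 was at 1319, 942, 792 and 555 CPM and Cd14 at 1462, 1346, 796 and 653 CPM, each lower with every further nonclassical gene.

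Other genes stood higher in the cells that held more nonclassical genes. Itgal, the integrin LFA-1 chain used for patrolling, was at 137, 165, 316 and 524 CPM. Csf1r, the receptor for the macrophage growth factor and one of the myeloid genes of the rule, was at 373, 401, 484 and 730 CPM. Pou2f2 was at 233, 238, 310 and 432 CPM, and Cx3cr1, at 140, 95.2, 169 and 344 CPM, did not follow the order in the first groups. The last group holds under 20 cells, and the first 3 groups alone have the same order for Ccr2, Ly6c2, Cd14, S100a10, Itgal, Csf1r and Pou2f2. With the 8 cells rich in other markers left out, Ccr2 was at 1018, 826, 712 and 401 CPM, Cd14 at 1573, 1410, 887 and 653 CPM and Itgal at 143, 168, 360.5 and 524 CPM. By contrast, Pou2f2, at 248, 239, 342 and 432 CPM, lost its order in the first groups. Fn1, at 1312, 1149, 555 and 899.6 CPM, lost its order in the last group. These are values of cells of 1 tumor, grouped by genes of the rule, and carry no test.

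**Figure D5:**
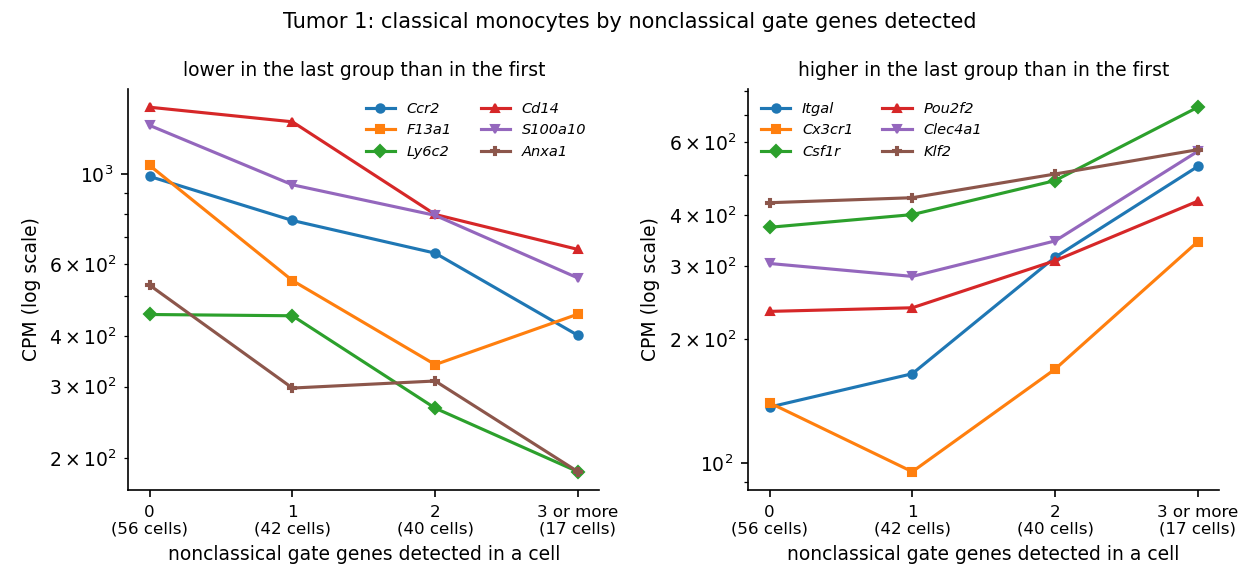
CPM on a log axis of genes, chosen after their values were seen, in the 155 classical monocytes of tumor 1 grouped by the number of nonclassical genes detected, with 1 line per gene. Cd14 is at 1462 CPM in the first and 653 CPM in the last group (left) and Itgal is at 137 CPM in the first and 524 CPM in the last group (right).

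Members of tumor 1 also differed in MHC class II. H2-Aa was found in 75 of 155 cells, and the 10 cells with most of it held 49.5% of its UMIs. The 51 cells with 5 or more H2-Aa UMIs had a median of 12577 UMIs and the other 104 had 10873. Between these groups, formed after the values were seen, Cd74, the invariant chain, stood at 10025 against 626 CPM and H2-Ab1 at 3660.5 against 66.6 CPM. Chil3 went the other way, at 447 against 2011 CPM, as did Ly6c2 at 212 against 465 CPM, Cxcl2 at 381 against 1167 CPM and Hp at 550 against 1057 CPM. Tgfbi, a matrix protein gene of macrophages, was at 1345 against 924 CPM. Bst2 and Irf8, both high in plasmacytoid dendritic cells, were at 411 against 127 CPM and at 489 against 182 CPM, but at 135 against 90.4 CPM and 172 against 158 CPM once the 8 cells rich in other markers were left out, 4 of the 5 plasmacytoid-rich cells being in the first group.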

How the data were processed

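Single-cell libraries of 3 whole tumors were deposited as counts and as normalized values. The authors aligned reads to mm10 (GRCm38) with Cell Ranger 3.1.0, and the deposited counts are UMIs per gene and barcode. In the second kind of file, the authors removed ambient RNA, doublets and poor cells and normalized with Seurat 3.1.5, and the deposited values behave as natural logs of corrected counts to which 1 was added. These files set which cells were kept and gave the corrected counts. The members and gene lists were chosen with earlier results of these data known.

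Counts were summed per class and tumor where at least 5 cells were present (11 sums) and tested with edgeR 4.0.16 in R 4.3.3 (filterByExpr, TMM, robust quasi-likelihood, class plus tumor). The 25 genes of the rule were left out of the tests but kept in library sizes. The standard error is the fold change divided by the root of the F statistic. The script was tested on simulated data. Alternatives were no block, DESeq2 1.42.0, no filter, each tumor left out, other limits of the rule, corrected counts, and cells with markers of other types left out. The tumor block was used because the classes came from the same animals: deviations of same-tumor sums correlated at 0.162 to 0.617 (15 pairs, 5113 genes) and those of different tumors at -0.389 to 0.218 (30 pairs). Named genes were at most 10 higher and 10 lower per comparison, ranked by fold change among the called genes, alike in direction in every tumor with both sums (tumors 1 and 2), with at least 50 CPM in the higher class. Besides these, members of 13 lists (355 of 357 genes found) were named. Folds against 0 used a floor of 3 UMIs. These folds, and the ratios with counting intervals, used UMIs pooled over tumors without the block. The pool was tumors 1 and 2 for classical monocytes and all 3 tumors for the other classes. Intervals are 95% exact (SciPy 1.17.1) and cover counting error only. Coordinates come from GENCODE M21 (98.3% of 31053 symbols found). A few genes are not reported here.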

Additional observations from a re-analysis of the deposited data

Results flagged for a closer look

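Barcodes outside the kept cells were searched with the same rule. In tumor 1, 6 of 1343 such barcodes passed it, or 0.447% (95% exact interval 0.164 to 0.970). The share is above the 0.223% that 3 counts would give, which its interval includes. They are listed because they lie in data that no comparison above used. Their median depth was 63227 UMIs (1650 to 102355), 3 were deeper than the deepest kept cell of that tumor (56703 UMIs), 1 had at least 20% mitochondrial UMIs, and 5 held 2 or more genes of a tumor, T, B, endothelial or fibroblast list. In tumor 2, 1 of 3106 barcodes passed (0.0322%), with 32.6% mitochondrial UMIs, and in tumor 3 0 of 3523 passed, where 3 counts would be 0.0852% and the exact upper limit is 0.105%.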

How the results depend on the processing

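Calls depended on the replicate block and on tumor 1, which held 155 of the 167 members. The number called also fell without cells that held 2 or more genes of another list, which left fewer cells and fewer genes to test. Without the replicate block 0, 43 and 146 genes were called against nonclassical monocytes, C1q macrophages and neutrophils, in place of 100, 249 and 825. Leaving out 1 tumor gave 26 to 262, 67 to 479 and 203 to 1305 genes, the lowest each time without tumor 1 and the highest without tumor 2, which also changes how many genes pass the filter (3094 and 9436). Without cells holding 2 or more genes of another list the counts were 30, 55 and 170 of 1205 genes tested, where the main fit tested 5088. With the erythroid list not used, an alternative added after seeing the data, the count was 154 of 2720 against C1q macrophages. Against nonclassical monocytes, no filter on low counts gave 209 and 4 or more classical genes gave 157. The number of classical monocytes was 77 after thinning to 1000 UMIs and 12 to 164 with 1 tumor left out, 12 without tumor 1. Of 3403 gene values under the alternatives, 2686 kept direction and side of the threshold, 710 lost the call and 7 reversed, all without tumor 1: with 1 tumor left out, Fcgr1 ran from -3.47 to 3.69 and Mmp12 from -0.87 to 3.68 against nonclassical monocytes, and Anxa1 from -0.19 to 2.61, Id3 from -3.52 to 2.53, Ifitm1 from -3.03 to 2.36, Nfil3 from -0.023 to 2.63 and Wfdc21 from -0.87 to 3.79 against C1q macrophages. The cause was not tested. Shares of members of tumor 1 with a UMI moved with depth, from 28.6% at 1000 UMIs per cell to 70.3% unthinned and 16.8% at 500 UMIs for Ly6c2, from 44.8% to 89.0% and 32.3% for Hp, from 14.9% to 56.8% and 7.10% for Cx3cr1, and from 29.2% to 48.4% unthinned for H2-Aa.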
